A study of Mus musculus with 4 samples.

Results

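Hepcidin and 6 other genes of iron transport and storage were followed across the stromal cells of mouse lymph nodes: Hamp, Hamp2, Slc40a1, Slc11a1, Trf, Tfrc, Fth1 and Ftl1. These 8 of the 32285 genes listed in the count tables were selected by their function as iron hormone, transport and storage genes, with earlier results of the same libraries known, and which of those results entered the choice is not stated. Their levels by cell type are therefore given as a description with no test. The comparison of genotypes was fitted over all genes and is not independent support for any of the 8.

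The libraries were single-cell 3′ RNA libraries of stromal cells negative for CD45 and CD31 from lymph nodes of 12-week-old female mice on a C57BL/6 background. The study compared Notch2 cKO mice, in which Ccl19-Cre deletes a floxed Notch2, with controls, in 2 batches of 1 library per genotype. Control 1 came from 6 pooled Ccl19-Cre x R26R-EYFP mice, and Notch2 cKO 1 from 6 pooled Notch2 fl/fl mice with Ccl19-Cre and R26R-EYFP that were not their littermates. Control 2 came from 3 pooled mice of the genotype Notch2 fl/fl, although the title of that library also names Ccl19-Cre, and Notch2 cKO 2 came from 3 pooled littermates of the genotype Ccl19-Cre x Notch2 fl/fl. Genotype differences in batch 1 therefore come with a difference in litter, and those in batch 2 with the presence of Cre. Each library is 1 replicate (n = 2 per genotype), so the unit behind each p-value is a pool of mice and not a cell. With so few libraries the tests share an estimate of spread across genes. A gene's p-value therefore does not rest on its own spread between pools alone. Ccl19-Cre marks reticular fibroblasts and their relatives, and cells outside that lineage keep Notch2.

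Hepcidin is a small peptide hormone, made mainly by the liver, that binds the iron exporter ferroportin (Slc40a1) and has it degraded, so that iron stays inside cells. Its gene is switched on by bone morphogenetic proteins through SMAD factors and by interleukin 6 through STAT3. Transferrin (Trf) carries iron in plasma and enters cells through the transferrin receptor (Tfrc), Slc11a1 (Nramp1) moves metal ions out of phagosomes and is best known in macrophages, and Fth1 and Ftl1 are the heavy and light chains of ferritin, which stores iron.

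The tables held 8491 to 18482 barcodes and 21533049 to 119002408 UMIs per library (a UMI is 1 counted RNA molecule). Of these barcodes, 7817 to 17014 passed the cell filter, at a median of 2123 and 2960 UMIs in batch 1 and 6169 and 7604.5 UMIs in batch 2. Pairs of libraries shared 21 to 57 barcodes. Cells were sorted by marker genes into gates, which are ranges of marker counts and not proven types. The marginal reticular gate held 411, 418, 2610 and 2300 cells in control 1, Notch2 cKO 1, control 2 and Notch2 cKO 2, the order used for all lists of 4 values below. The T-zone reticular gate held 3830, 3227, 4138 and 4390 cells. The follicular dendritic gate held 2, 1, 186 and 133 cells and the perivascular gate 20, 21, 880 and 542, so both rest on batch 2. The marginal reticular gate was led by Cxcl13 (3791, 3906, 4841 and 7331 CPM, counts scaled to 1000000 UMIs of the gate), Enpp2 and Tnfsf11, but Madcam1 went against its name, at 4.58, 11.9, 24.1 and 17.5 CPM there against 44.5, 8.41, 45.6 and 5.32 CPM in the T-zone reticular gate. Notch2 itself, the targeted gene, stood at 42.6, 15.1, 57.2 and 37.7 CPM in the T-zone reticular gate. These 3′ tags need not lie in the deleted part of the gene, so they do not check the deletion.

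Hamp and Hamp2 are neighbouring copies on the minus strand of mouse chromosome 7 in GRCm38. Hamp (ENSMUSG00000050440) spans chr7:30942368-30944032 and Hamp2 (ENSMUSG00000056978) spans chr7:30922372-30924681. Because reads of near-identical copies can be assigned to the wrong gene, their transcripts were aligned first. The annotated transcripts are 410 and 420 bases long and were identical at 389 of 420 aligned positions (92.6%), with 10 gap positions. Their longest shared run was 87 bases, and 0 of the 321 windows of 90 bases in Hamp occurred in Hamp2, so a full 90-base read without errors belongs to 1 gene. How shorter or error-bearing reads were assigned was not given in the sources used here. Both coding sequences are 249 bases long and differ at 16 positions, 14 of which lie in the last 75 coding bases, which encode the mature hormone. A further 11 differences, gaps included, lie in the last 90 aligned positions of the transcripts, near the 3′ end that these libraries tag. The parts after the coding sequence are 112 and 122 bases long. With 389 of 420 positions identical, 10 gaps and 16 coding differences, the 11 cannot all be base differences. How many of them are gaps was not counted. The coding stretch is shown for both genes because most coding differences lie in it, with the differing bases in capitals.
Hamp: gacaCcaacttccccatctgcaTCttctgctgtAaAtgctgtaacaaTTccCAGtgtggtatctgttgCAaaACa
Hamp2: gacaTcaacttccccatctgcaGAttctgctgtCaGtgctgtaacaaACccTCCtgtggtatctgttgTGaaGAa

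The stretch of promoter that carries the known hepcidin control elements is also nearly shared, and is printed so that the 2 copies, whose levels by gate differ below, can be compared there. The 250 bases upstream of each start (RefSeq, GRCm38.p6) were identical at 227 of 253 aligned positions (89.7%). The lines show 76 bases of chr7:30944093-30944168 for Hamp and of chr7:30924242-30924317 for Hamp2, both on the minus strand and upstream of the RefSeq start, with 2 motifs in capitals. The Hamp stretch lies outside the gene span given above, and the Hamp2 stretch inside it, because that annotation starts Hamp2 further upstream.
Hamp: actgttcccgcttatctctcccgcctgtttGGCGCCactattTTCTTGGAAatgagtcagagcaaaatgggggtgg
Hamp2: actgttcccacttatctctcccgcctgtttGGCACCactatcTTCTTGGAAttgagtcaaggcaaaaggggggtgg
The first motif, GGCGCC, has the letters of the BMP-responsive element described for hepcidin, and lies 109 bases before the Hamp start. Hamp2 carries the substitution G4A there, counted from 1 at the 5′ end of the motif with the Hamp base first, which makes it GGCACC. Counted on both strands, the 250 bases of Hamp2 hold GGCACC 2 times, this place included, and those of Hamp 0 times. On either strand, GGCGCC occurred in 9.59% and GGCACC in 12.9% of 32851 RefSeq promoters of the same length. The second motif, TTCTTGGAA, has the letters of a STAT site and lies 97 and 94 bases before the 2 starts. It was found once in each of the 2 promoters and in 120 of the 32851 (0.365%), while the looser TTCNNNGAA, which includes it, was found in 7.02%. A match of letters is a description and not a bound site.

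Hamp2 was highest in the gate of marginal reticular cells, fibroblasts that line the lymph node's outer follicles. Its level there was 30.9 CPM in control 1, 96.2 CPM in Notch2 cKO 1, 190 CPM in control 2 and 77.1 CPM in Notch2 cKO 2, from 27, 129, 3740 and 1454 UMIs. In the T-zone reticular gate the same libraries gave 0.102, 0.35, 3.56 and 1.43 CPM, the lowest of which is a single UMI. In each library the marginal reticular gate was the highest of all gates of 20 cells or more. The ratio of the 2 gates was 274 in Notch2 cKO 1 and 53.3 and 54.1 in batch 2. The marginal reticular gate held 81.8%, 80.6%, 78.9% and 84.3% of all Hamp2 UMIs of the kept cells, with exact 95% binomial intervals, which cover counting error only, of 64.5% to 93.0%, 73.6% to 86.4%, 77.7% to 80.04% and 82.5% to 86.0%. A stricter gate, which leaves fewer cells in it, held 30.3%, 50.6%, 62.3% and 66.4%, so the share depends on where the gate is set. The medullary-type gate had 0, 11.8, 28.1 and 10.4 CPM, and the interferon-high, T-zone, adventitial and other fibroblast gates lay at or under 10.3 CPM. In control 2 the leukocyte gate, at 38.4 CPM, and the follicular dendritic gate, at 34.2 CPM, stood above the medullary-type gate.

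**Figure D1:**
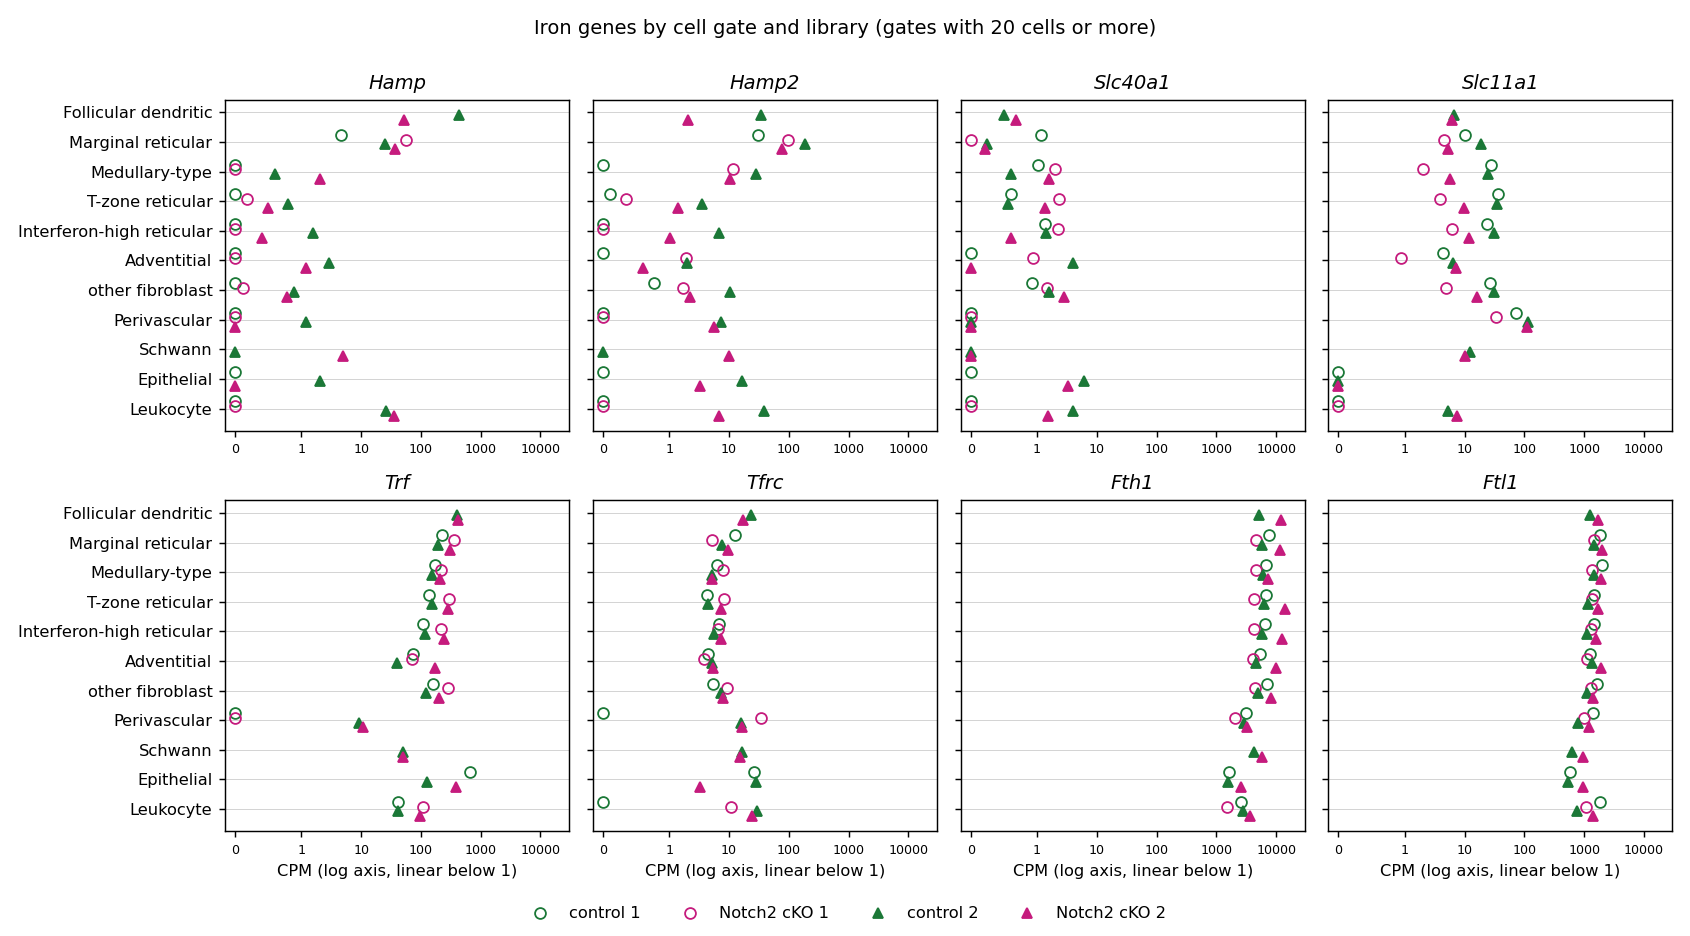
CPM of each of the 8 genes (x axis, log scale, linear below 1) in each cell gate (y axis), 1 point per library with at least 20 cells in the gate; circles are batch 1, triangles batch 2, green control and magenta Notch2 cKO. Hamp2 peaks in the marginal reticular gate at 30.9 to 190 CPM, Hamp in the follicular dendritic gate of control 2, and Slc11a1 in the perivascular gate, while Fth1 and Ftl1 are found in all gates.

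Not every marginal reticular cell carried the RNA. A Hamp2 UMI was present in 5.60%, 15.3%, 33.8% and 26.6% of the cells of that gate, at median depths of 2007, 3037.5, 6931 and 7465 UMIs per cell. After thinning each cell to 1000 UMIs the shares were 2.92%, 7.89%, 12.1% and 6.74%, a narrower gap between the batches at equal depth. In the T-zone reticular gate, at the greater median depths of 2390.5, 3291, 8209.5 and 10398 UMIs, 0.0261%, 0.093%, 1.96% and 0.957% of cells had a Hamp2 UMI. The shares in the marginal reticular gate lay above those in every library. Cells could hold several molecules, up to 37 in 1 cell of control 2 and 15 in 1 cell of Notch2 cKO 2.

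Within the cells of control 2, Hamp2 and Hamp were highest in different ranges of Cxcl13, the B-cell chemokine of marginal reticular and follicular dendritic cells. Cells of all fibroblast gates, which here include the marginal reticular and follicular dendritic gates, were binned by Cxcl13 content. Cells of the remaining gates, such as the perivascular and leukocyte gates, were left out. Cxcl13 is itself a marker of the marginal reticular gate. In control 2, Hamp2 was 3.48 CPM in cells with no Cxcl13, reached 203 CPM at 40 to 80 Cxcl13 UMIs per 10000, and was 84.8 CPM at 160 or more. In Notch2 cKO 2 the values were 1.81, 65.5 and 77.0 CPM, with the highest bin, 84.5 CPM, at 80 to 160. Its 95% Poisson interval (75.2 to 94.7 CPM) overlapped that of the last bin (66.5 to 88.7 CPM), so the 2 bins were not told apart. Hamp was instead highest in the cells richest in Cxcl13, with 551 CPM in control 2 and 165 CPM in Notch2 cKO 2 at 160 or more, against 18.9 and 20.4 CPM at 40 to 80. Cr2, a marker of the follicular dendritic gate, was 61.1 and 58.5 CPM at 40 to 80, and 1184 and 240 CPM at 160 or more. The part of cell type in the Hamp pattern was not tested. In batch 1 that top bin held only 4 and 14 cells. At 80 to 160, Notch2 cKO 1 had 302 CPM of Hamp2 and 34.5 CPM of Hamp in 34 cells.

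**Figure D2:**
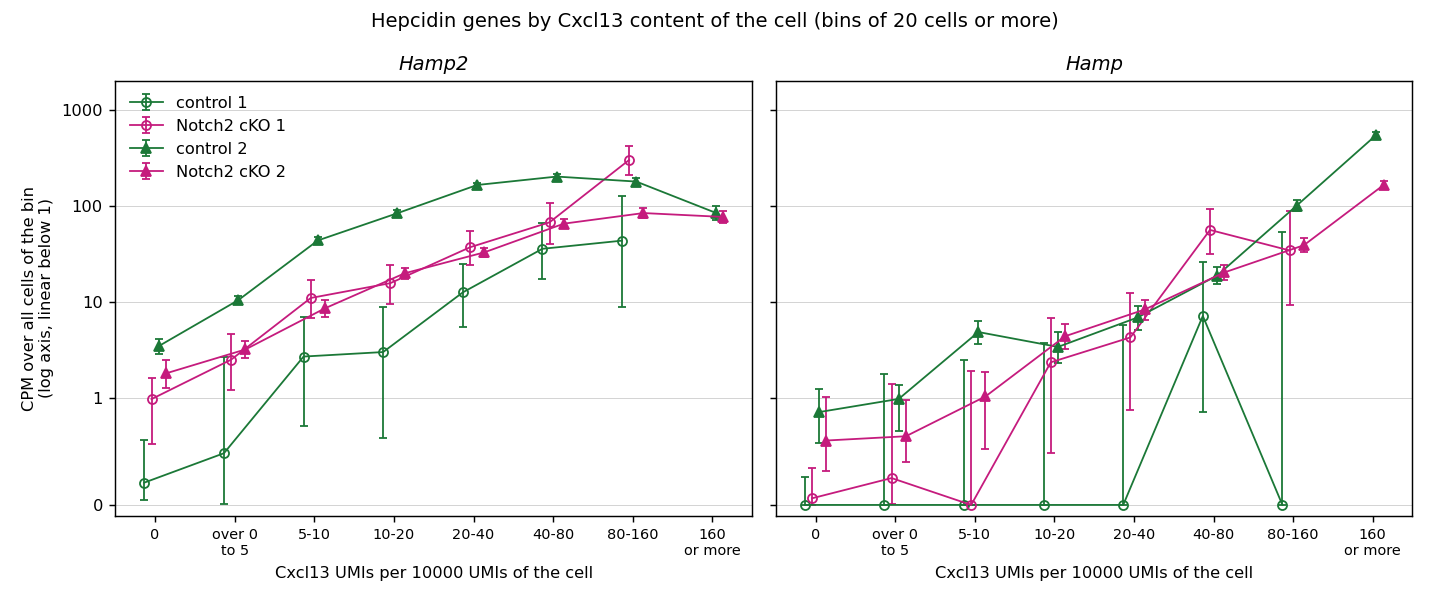
Hamp2 (left) and Hamp (right) in CPM (y axis, log scale, linear below 1) against Cxcl13 UMIs per 10000 of the cell (x axis). Points cover the fibroblast-gated cells of each library, the follicular dendritic gate included, in bins of 20 cells or more. Bars are exact 95% Poisson intervals, which cover counting error only. Hamp2 is highest at 40 to 80 in control 2. In Notch2 cKO 2 it is highest at 80 to 160, with an interval that overlaps that of the last bin. Hamp is highest in the last bin in both, at 551 CPM in control 2 and 165 CPM in Notch2 cKO 2. In the last plotted bin of Notch2 cKO 1, Hamp2 is 302 CPM and Hamp 34.5 CPM.

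Hamp, the copy that makes the liver hormone, was highest in the follicular dendritic gate in control 2, and close to its marginal reticular level there in Notch2 cKO 2. Follicular dendritic cells hold antigen in B-cell follicles and are marked here by Cr2, the complement receptor, at 1545 and 864 CPM. Hamp stood there at 441 CPM in control 2 (878 UMIs in 186 cells) and at 52.5 CPM in Notch2 cKO 2 (76 UMIs in 133 cells), in 30.1% and 13.5% of cells at median depths of 9554 and 10064 UMIs. The control value is the higher of the 2, but there is 1 library per genotype and no test, since the gate held 2 cells and 1 cell in batch 1. The follicular dendritic gate held 56.5% of the Hamp UMIs of control 2 and 8.15% of those of Notch2 cKO 2, and the marginal reticular gate 32.2% and 75.6%. In the T-zone reticular gate Hamp was 0, 0.175, 0.804 and 0.503 CPM. The leukocyte gate of batch 2 also showed Hamp, at 26.5 and 34.9 CPM in 1.03% and 1.18% of its cells, and the same gate carried Cxcl13 at 929 and 1820 CPM and Cr2 at 107 and 131 CPM. Whether stromal RNA or stromal cells in that gate account for its Hamp was not tested.

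The Hamp RNA came from few cells. The 10 cells with most Hamp held 42.9% of it in control 2 (35 to 122 UMIs each) and 27.4% in Notch2 cKO 2 (20 to 44 each). In control 2 these 10 cells held 0 Hamp2 UMIs and 9 had a Cr2 UMI, while in Notch2 cKO 2 5 of 10 had Hamp2 and 2 had Cr2. Over all cells with Hamp in the follicular dendritic gate, 54 of 56 in control 2 and 18 of 18 in Notch2 cKO 2 had Cr2. Cr2 is a marker that sets this gate, so that count does not set the Hamp cells apart. Of the same Hamp cells 3 of 56 and 0 of 18 had Hamp2, beside 14 of 186 and 3 of 133 over all cells of the gate. In the marginal reticular gate, 96 of 135 Hamp cells in control 2 and 110 of 186 in Notch2 cKO 2 also had Hamp2. Over all cells of that gate, 882 of 2610 and 612 of 2300 had Hamp2. At least 3 UMIs of both copies were found in only 12 and 7 of its cells. The part of reads assigned to the wrong copy in this overlap was not tested. In control 2, cells with 35 or more Hamp UMIs carried no Hamp2 count at all.

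**Figure D3:**
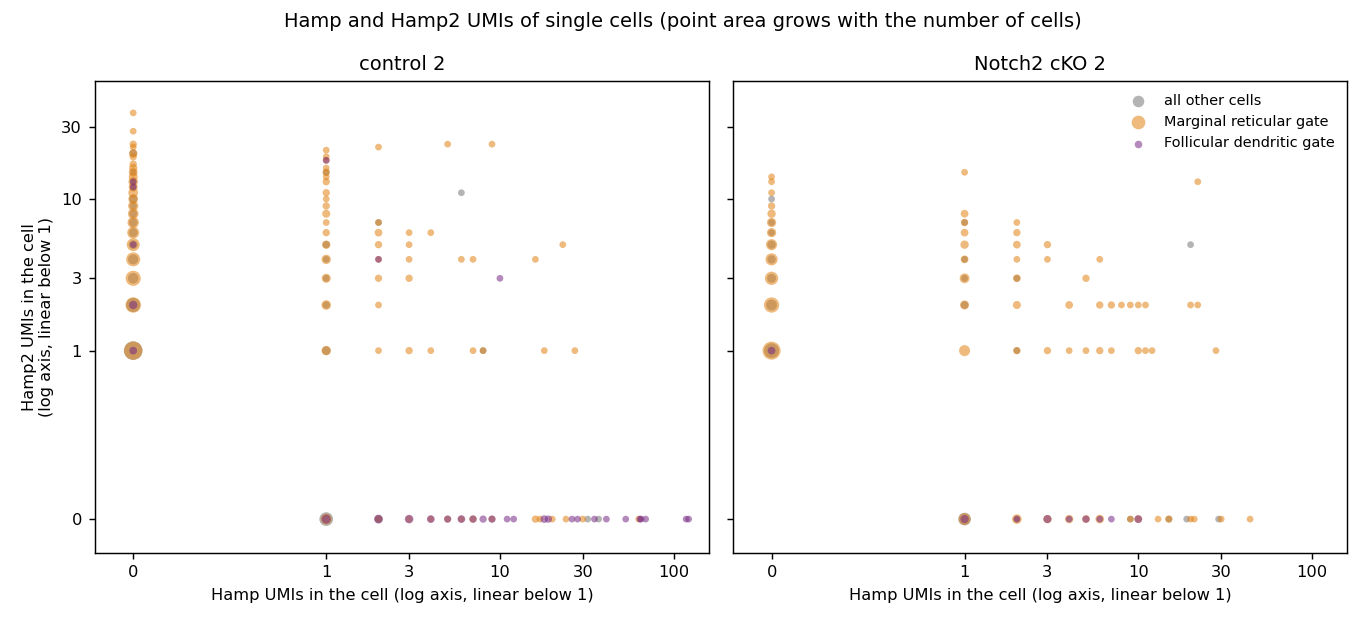
Hamp UMIs (x axis) and Hamp2 UMIs (y axis) of single cells of control 2 (left) and Notch2 cKO 2 (right), both on log axes that are linear below 1; colour gives the gate and point area grows with the number of cells at that pair of values. Cells of the follicular dendritic gate lie mostly along the bottom edge, with Hamp and no Hamp2, while cells of the marginal reticular gate fill the left edge and the middle.

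Neither hepcidin copy gave a genotype difference that held in all settings. In the marginal reticular gate, edgeR's quasi-likelihood test, with a batch term and p-values adjusted after Benjamini and Hochberg, called 447 of 13891 genes (3.22%) between Notch2 cKO and control, and 2 of the 7 members tested, Hamp and Slc11a1. Hamp2 differed by -0.26 on the log2 scale (SE 0.25, adjusted p = 0.984), being higher in the knockout in batch 1 (1.65) and lower in batch 2 (-1.41), so the genotypes overlapped. Hamp was 4.58, 55.9, 25.4 and 37.4 CPM, from 4, 75, 500 and 705 UMIs, higher in the knockout within each batch although control 2 lay above control 1. Its log2 difference was 1.14 (SE 0.27, adjusted p = 0.00159), made of 3.57 in batch 1 and 0.44 in batch 2. In Notch2 cKO 1, 3 cells held 84.0% of its 75 UMIs, against 24.0% in control 2 and 14.5% in Notch2 cKO 2. The call was lost with DESeq2 (1.68, adjusted p = 0.551) and with a stricter gate (0.71, adjusted p = 0.276). It was also lost without the batch term, in a fit that called 0 genes of this gate. With 1 library left out, also without the batch term, the difference ranged from 0.81 to 3.26. The Cxcl13 level of the gate was 3791 and 3906 CPM in batch 1, where most of the Hamp difference lay, and 4841 and 7331 CPM in batch 2, and its part in the Hamp difference was not tested.

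Slc11a1 fell in the Notch2 cKO libraries. Slc11a1 (ENSMUSG00000026177, chr1:74375195-74386062, plus strand) stood at 35.8 CPM in control 1, 3.86 CPM in Notch2 cKO 1, 34.2 CPM in control 2 and 9.68 CPM in Notch2 cKO 2 in the T-zone reticular gate, from 351, 44, 1276 and 462 UMIs. Both knockout libraries lay below both controls, and the controls of the 2 batches nearly coincided. T-zone reticular cells are the fibroblasts that hold and guide T cells through Ccl19 and Ccl21a. In this gate edgeR's quasi-likelihood test called 908 of 15285 genes (5.94%), and 2 of the 8 members, Slc11a1 and Trf. The log2 difference of Slc11a1 was -2.48 (SE 0.28, adjusted p = 9.14e-05), with -3.17 in batch 1 and -1.95 in batch 2, and with DESeq2 it was -2.55 (adjusted p = 4.74e-08). Without the batch term it was -2.44 and not called (adjusted p = 0.459), in a fit that called 0 genes of this gate. With 1 library left out, also without the batch term, it ranged from -3.20 to -1.98.

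The lower level was shared by most fibroblast gates, but not by the adventitial gate (4.39, 0.938, 6.29 and 7.23 CPM, too few counts to test). The follicular dendritic gate of batch 2 did not share it either, at 6.54 and 6.21 CPM from 13 and 9 UMIs. Nor was it seen in batch 2 of the perivascular gate, the contractile cells around small vessels, where Slc11a1 was highest. Over all fibroblast-gated cells, which include the T-zone gate, Slc11a1 was 30.1, 4.26, 28.1 and 9.99 CPM, with a log2 difference of -2.17 (SE 0.30, adjusted p = 0.0116, edgeR's quasi-likelihood test). It was the only 1 of 8 members among the 371 of 17601 genes (2.11%) called there, and library totals without TMM factors left it uncalled (-2.12, adjusted p = 0.0731) and moved the split of all called genes from 227 up and 144 down to 79 up and 31 down. In the marginal reticular gate it was 10.3, 4.47, 18.9 and 5.35 CPM (log2 difference -1.81, SE 0.36, adjusted p = 6.82e-05), a call that DESeq2 did not make (-1.66, adjusted p = 0.917). In the medullary-type gate it was 27.2, 1.97, 24.3 and 5.72 CPM and in the interferon-high reticular gate 23.5, 6.06, 30.7 and 11.6 CPM, again with both knockouts below both controls and with no test run.

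In the perivascular gate the batch 2 libraries gave 113 CPM in control 2 and 111 CPM in Notch2 cKO 2, from 380 and 259 UMIs, and 30.3% and 32.3% of the cells had a Slc11a1 UMI. Batch 1 gave 73.3 and 33.7 CPM from only 2 UMIs and 1 UMI. edgeR's quasi-likelihood test called 23 of 9635 genes in this gate (0.239%) and 0 of the 5 members tested. None of the 5 had an unadjusted p under 0.05 either, and DESeq2 called 0 genes. Slc11a1 differed by -0.15 (SE 0.40, adjusted p = 1). A fit over both gates tested the difference itself: the genotype effect was 1.91 log2 units higher in the perivascular gate than in the T-zone reticular gate (SE 0.48, adjusted p = 0.00428), 1 of 6 members tested, where 398 of 13875 genes (2.87%) were called. DESeq2 did not call it (1.95, adjusted p = 1), and without control 2 it was 3.07 and without Notch2 cKO 2 0.88, both uncalled. Notch2 in the perivascular gate was 49.8 and 32.1 CPM in batch 2.

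Because perivascular cells carry much Slc11a1, their markers in the T-zone reticular gate were measured. The 7 genes of the Perivascular list summed to 1125, 741, 1127 and 844 CPM there, lower in both knockouts, with 1 of 7 at 0 in each batch 1 library, and the same list summed to 5940, 8620, 4481 and 4727 CPM in the perivascular gate. Rgs5, its most abundant gene, was 833, 460, 742 and 480 CPM in the T-zone reticular gate. Among T-zone cells with under 20 mural marker UMIs per 10000, a subset chosen after seeing the data, the Slc11a1 difference was -2.70 (SE 0.26, adjusted p = 1.89e-08, edgeR's quasi-likelihood test). The mural RNA left in these cells was not measured, and its part in the difference was not tested. The 9 genes of the Macrophage list summed to 12.8, 21.1, 14.0 and 15.4 CPM in the T-zone reticular gate. Adgre1, a gene of that list, was 0, 0, 0.0268 and 0.0629 CPM, so nearly all of the sum came from its other genes. The part of macrophage RNA was not tested either.

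**Figure D4:**
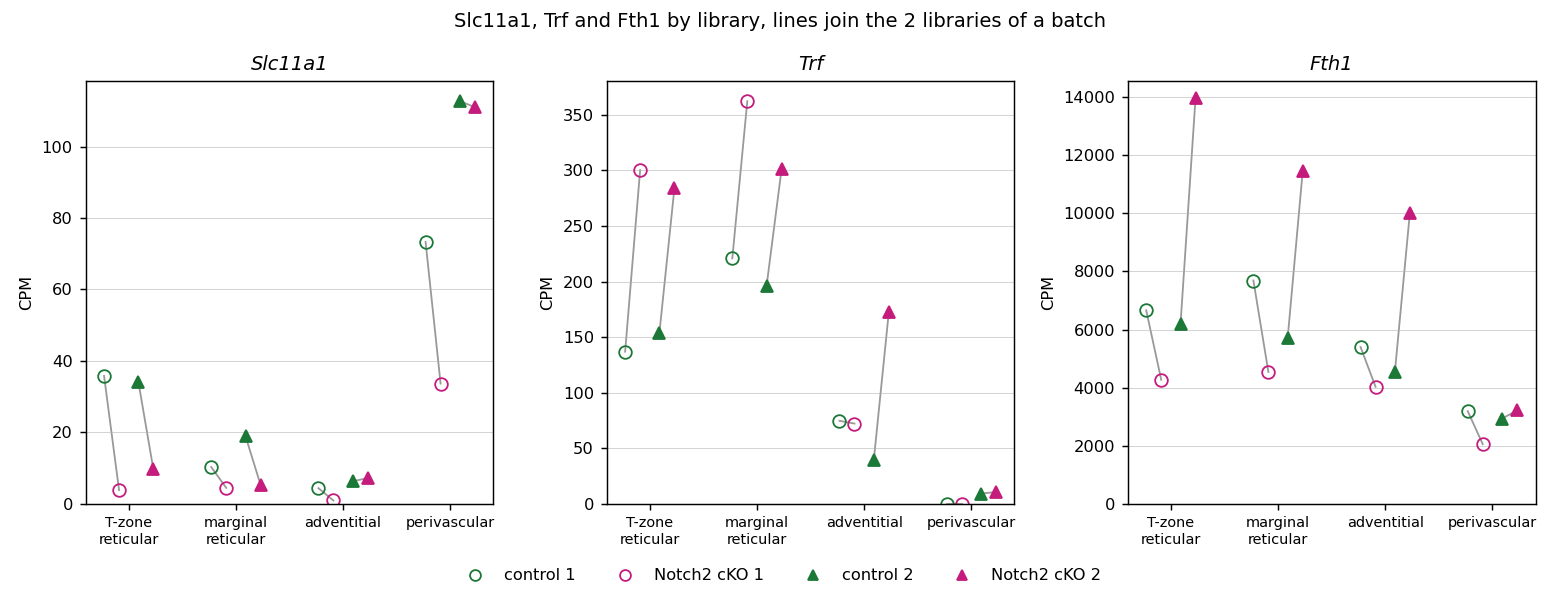
CPM of Slc11a1, Trf and Fth1 (y axis, linear from 0) in the T-zone reticular, marginal reticular, adventitial and perivascular gates (x axis), 1 point per library; lines join the control and the Notch2 cKO library of a batch. In the T-zone and marginal reticular gates Slc11a1 is lower and Trf higher in the knockout in both batches, and Fth1 is lower in batch 1 and higher in batch 2.

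Trf, which encodes transferrin, moved the other way. Trf (ENSMUSG00000032554, chr9:103204001-103230444, minus strand) was 137 CPM in control 1, 300.3 CPM in Notch2 cKO 1, 154 CPM in control 2 and 284 CPM in Notch2 cKO 2 in the T-zone reticular gate. Both knockouts lay above both controls, and libraries of a genotype were close. The log2 difference was 0.95 (SE 0.24, adjusted p = 0.0304, edgeR's quasi-likelihood test), with 1.15 in batch 1 and 0.75 in batch 2. It was not called without the batch term (0.95, adjusted p = 0.827), in a fit that called 0 genes of this gate. With 1 library left out, also without the batch term, it ranged from 0.84 to 1.03. Over all fibroblast-gated cells Trf was 147, 282, 151 and 267 CPM, a difference of 0.84 that missed the threshold (adjusted p = 0.108) and passed it with DESeq2 (0.81, adjusted p = 0.0108). In the marginal reticular gate it was 221, 362, 196 and 301 CPM (0.61, adjusted p = 0.230), also with no overlap of the genotypes but uncalled. In the adventitial gate, the fibroblasts around larger vessels, it was 74.7, 72.2, 39.2 and 172 CPM, with no difference in batch 1 (-0.01) and 2.00 in batch 2 (1.27, adjusted p = 0.226). That gate had 59 of 9997 genes called (0.59%) and 0 of 3 members by edgeR's quasi-likelihood test. Trf was there the 1 of 3 with an unadjusted p under 0.05, and DESeq2 called 1 gene.

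Transferrin RNA was present in all fibroblast gates. The marginal reticular gate averaged 270.2 ± 76.0 CPM (SD, n = 4 libraries of both genotypes), the T-zone reticular gate 219 ± 85.3 and other fibroblasts 192 ± 71.2. The medullary-type gate averaged 188 ± 31.8, the interferon-high reticular gate 171 ± 68.5 and the adventitial gate 89.6 ± 57.5. These spreads overlapped between neighbours, but they include the genotype difference and ignore that gates share a library. Within each library the marginal reticular gate lay above the T-zone reticular gate (221, 362, 196 and 301 against 137, 300, 154 and 284 CPM). Other neighbours changed order, as T-zone reticular and other fibroblast cells did in control 1 (137 against 160 CPM). The perivascular gate of batch 2 held 9.20 and 10.7 CPM, under the marginal reticular gate by 21.3 and 28.1 times. The follicular dendritic gate of batch 2 gave 404 and 422 CPM. In the epithelial gate, with 15 to 46 cells per library, Trf varied from 124 to 658 CPM, above every fibroblast gate in control 1 and Notch2 cKO 2. The leukocyte gate had 42.1, 110.2, 41.0 and 94.8 CPM.

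Tfrc, the receptor that takes transferrin into cells (ENSMUSG00000022797, chr16:32608920-32632794, plus strand), was at a low level. It was 4.29, 8.15, 4.42 and 7.46 CPM in the T-zone reticular gate, from 42, 93, 165 and 356 UMIs, higher in both knockouts, but the difference was not called (0.76, SE 0.27, adjusted p = 0.151, edgeR's quasi-likelihood test). In the marginal reticular gate it was 12.6, 5.22, 7.61 and 9.49 CPM and the genotypes overlapped (-0.10, adjusted p = 1). In the epithelial gate of control 2 it was 28.5 CPM, from 14 UMIs in 38 cells. Among other gates of batch 2 it was 23.1 and 17.3 CPM in the follicular dendritic gate and 29.8 and 24.3 in the leukocyte gate. The perivascular gate had 15.7 and 16.3 CPM, against 4.42 to 9.49 in the T-zone and marginal reticular gates of batch 2. The adventitial gate, with 5.15 and 5.42 CPM, and the medullary-type gate, with 5.26 and 5.20, lay within that range.

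Slc40a1, ferroportin, the only known iron exporter and the target of hepcidin (ENSMUSG00000025993, chr1:45908068-45926523, minus strand), was near the floor in the stroma. Across all kept cells it had 17, 45, 126 and 145 UMIs. In the T-zone reticular gate it was 0.612, 2.37, 0.563 and 1.36 CPM, from 6, 27, 21 and 65 UMIs, higher in both knockouts but not called (1.45, SE 0.50, adjusted p = 0.130, edgeR's quasi-likelihood test). The marginal reticular gate, where Hamp2 was highest, had 1, 0, 5 and 4 UMIs, too few for the test. The perivascular gate had 0 UMIs in every library, where 3 UMIs of the gate's total would be 0.89 CPM in control 2.

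The ferritin chains were detected at high levels in all gates. Fth1 (ENSMUSG00000024661, chr19:9980598-9985098, plus strand) was 6661, 4271, 6185 and 13958 CPM in the T-zone reticular gate. It was lower in the knockout in batch 1 (-0.62) and higher in batch 2 (1.04), so the pooled difference of 0.21 (SE 0.50, adjusted p = 0.931, edgeR's quasi-likelihood test) describes neither. Notch2 cKO 2 stood apart from the other 3 libraries in the same way in the marginal reticular gate (7687, 4539, 5712 and 11447 CPM) and the follicular dendritic gate (5183 and 12122 CPM in batch 2). In the perivascular gate batch 2 gave 2934 and 3216 CPM. Ftl1 (ENSMUSG00000050708, chr7:45457944-45459884, minus strand) was 1458, 1362, 1140 and 1729 CPM in the T-zone reticular gate (0.19, SE 0.32, adjusted p = 0.901). Over the 6 fibroblast gates with 100 cells or more in each library its mean lay between 1369 ± 230 and 1693 ± 274 CPM (SD, n = 4). The means differed by little beside this spread, which includes both genotypes and batches. Within each library Ftl1 was higher in the marginal than in the T-zone reticular gate (1845, 1448, 1477 and 2003 against 1458, 1362, 1140 and 1729 CPM). In control 1 the medullary-type gate lay above the marginal reticular gate, at 1975 CPM. Both ferritin genes have near-identical processed copies elsewhere in the genome, so how reads were divided among copies is uncertain.

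Ferritin, ferroportin and the transferrin receptor share a control that counts of RNA see only in part. Iron regulatory proteins bind a hairpin, the iron-responsive element, which blocks translation when it lies in the 5′ UTR and protects the RNA when it lies in the 3′ UTR. The annotated transcripts of the 8 members were searched for a C, 5 bases, the loop CAGTGN and 5 bases that pair with the first 5, allowing 1 G-T pair. The hits are shown, loop in capitals, because they group the members by a feature that uses no expression value.
Slc40a1 5′ UTR: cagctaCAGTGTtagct
Fth1 5′ UTR: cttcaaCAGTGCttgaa
Ftl1 5′ UTR: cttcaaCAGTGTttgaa
Tfrc 3′ UTR: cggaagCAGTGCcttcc
Tfrc 3′ UTR: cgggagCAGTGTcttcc
Tfrc 3′ UTR: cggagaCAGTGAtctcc
Tfrc 3′ UTR: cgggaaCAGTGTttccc
Hamp, Hamp2, Slc11a1 and Trf had no hit. Among 21877 genes, 18 had such a site in the 5′ UTR (0.0823%) and 51 in the 3′ UTR (0.233%). In the T-zone reticular gate, where all 8 members were tested and 5.94% of all genes were called, the 2 called were among the 4 without the site. With so few members nothing is read from that count.

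The wider iron pathway was read from the same fits. Of the Iron hormone regulation list, 21 of 23 genes were tested in the T-zone reticular gate, 1 was higher, 1 lower, and the median log2 difference was 0.19, against 5.94% called (456 higher and 452 lower) and a median of 0.02 over all genes. Bmp2, a bone morphogenetic protein of the family that induces hepcidin, was 31.2, 74.3, 24.6 and 55.3 CPM (1.15, SE 0.19, adjusted p = 0.00208, edgeR's quasi-likelihood test), both knockouts above both controls. Il6, the inflammatory inducer of hepcidin, was 60.2, 29.7, 247 and 28.7 CPM (-2.15, SE 0.40, adjusted p = 0.00434), with control 2 far above the rest. In the marginal reticular gate, where the hepcidin genes are expressed, Il6 was 157, 103, 253 and 48.9 CPM and lower again (-1.63, adjusted p = 1.58e-08). It was the 1 call among 19 tested genes of the list, beside 3.22% of all genes called in that gate. There DESeq2 called 66 genes and the fit without the batch term 0. Bmp6, the main hepatic inducer, was 0.714, 0.263, 1.69 and 0.671 CPM in the T-zone reticular gate and not called (-1.45, adjusted p = 0.172).

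Of the Iron uptake and reduction list, 13 of 15 genes were tested in the T-zone reticular gate and 2 were higher, again beside 5.94% of all genes. The median of 0.20 was made of 0.60 in batch 1 and -0.21 in batch 2. Scara5, a receptor for ferritin, was 13.7, 60.8, 30.2 and 51.3 CPM (1.35, SE 0.29, adjusted p = 0.0131, edgeR's quasi-likelihood test). Lcn2, which binds iron-loaded siderophores, was 0.204, 1.40, 0.0804 and 1.09 CPM (adjusted p = 0.0115) and in the marginal reticular gate 0, 8.20, 0.914 and 8.16 CPM (adjusted p = 5.82e-06). Of the Haem uptake, synthesis and breakdown list, 19 of 20 were tested and 2 were higher, against 5.94% of all genes, with a median of 0.07. Alas1, the first enzyme of haem synthesis, was 31.2, 88.8, 43.3 and 84.2 CPM (1.16, SE 0.22, adjusted p = 0.00441). Hp, haptoglobin, which binds free haemoglobin, was 0, 1.84, 0.0268 and 1.66 CPM (adjusted p = 0.000701) and in the marginal reticular gate 0, 6.71, 0.305 and 4.72 CPM (adjusted p = 4.03e-05). With controls at or near 0, no fold is given for Lcn2 and Hp. Both were also the only genes of these lists called over all fibroblast-gated cells (adjusted p = 0.0183 for Lcn2 and 0.00761 for Hp), beside 2.11% of all genes. In the leukocyte gate of batch 2, Hp was 46.3 and 25.03 CPM and Lcn2 18.5 and 4.55 CPM, and the part of leukocyte RNA in their rise was not tested.

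The other lists had few calls or none. The Iron export and oxidation list had 2 of 3 genes tested in the T-zone reticular gate, the Iron storage, chaperones and ferritin turnover list 7 of 8, and the Mitochondrial iron and Fe-S clusters list 10 of 10, with 0 calls and medians of 0.26, -0.01 and 0.05. The first of these was 0.69 in batch 1 and -0.13 in batch 2. The Oxidative stress and ferroptosis list had 1 call among 10 in the T-zone reticular gate, beside 5.94% of all genes. It was Slc7a11, the cystine importer, at 409, 173, 371 and 160 CPM (-1.29, SE 0.24, adjusted p = 0.00484, edgeR's quasi-likelihood test). In the adventitial gate 0 genes of these lists were called, beside 0.59% of all genes. The Immediate early and dissociation list, a sign of handling stress, summed to 20695, 31176, 20836 and 20853 CPM in the T-zone reticular gate, highest in Notch2 cKO 1, with 0 of 10 called. In other gates 1 of its genes, Hspa1b, was lower in the marginal reticular (-0.92, adjusted p = 0.0054) and perivascular gates (-1.88, adjusted p = 0.00373). Those gates had 3.22% and 0.239% of all genes called. The Red cell RNA list summed to 0.2 to 23.2 CPM in the T-zone reticular gate, with 0 of 3 tested genes called and a median of 1.21 (5.91 in batch 1, where control 1 was near 0), and the Cell cycle list had 0 of 5 called.

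For each member the genes with the most similar pattern were ranked by Pearson's r of log2(CPM + 1) over 39 points of gate and library, after subtracting each library's mean, among 7750 genes of at least 20 CPM in 1 gate of every library, with gate markers and predicted, ribosomal and mitochondrial genes passed over. The points share libraries and depth, so r is a description only. Slc11a1 was most like Rem1 (0.93), Adamts4 (0.92), Trpc1 (0.90), Nexn (0.90) and Cald1 (0.90). Fth1 was most like Cpxm1 (0.94) and C4b (0.93), Trf like Csad and Nos1ap (both 0.89), Ftl1 like Calr (0.86) and Tfrc like Sntb1 (0.80). The sparse members had weaker partners: Hamp2 was most like Timd4 (0.71), Slc40a1 like Eef1d (0.68) and Hamp like Prpf38b (0.66). Timd4 was the only gene among the 5 nearest of both Hamp2 and Hamp (0.62).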

How the data were processed

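The deposited files hold raw UMI counts per gene and barcode, made by the authors from 3′ libraries (10x v3.1), 1 matrix per library. Per the file headers, Cell Ranger 5.0.1 was used for batch 1 and 7.1.0 for batch 2, while the submitters' processing notes name 5.0.1 with mm10. Whether introns were counted was not given in the sources used here, so batches may differ by processing as well as depth.

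Cells with at least 500 genes, at least 1000 UMIs and at most 10% mitochondrial UMIs were kept. No doublet caller was run. Cells with markers of another lineage (36 to 342 per library) and cells in no gate (81 to 1354) were left out. Gates are thresholds on marker UMIs, set after the data and the levels of the 8 genes had been seen, and 1 earlier version was tried, in which marginal reticular cells also needed the fibroblast minimum. The members and lists were chosen with earlier results of these data known. The text names the 8 members in all gates, every gene of the iron lists that was called, and the genes most like each member.

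Counts were summed per library and gate and tested with edgeR 4.0.16 (quasi-likelihood, TMM factors, filterByExpr, batch as a block, Benjamini-Hochberg threshold 0.05) in R 4.3.3. Replicate numbers mark batches per the labels, and same-numbered libraries deviated together (correlation 0.832 over all fibroblast-gated cells and 0.149 in the perivascular gate). DESeq2 1.42.0, other filters, gates and libraries left out were alternatives. The scripts were tested on simulated data.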

Additional observations from a re-analysis of the deposited data

Results flagged for a closer look

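The genotype effect on Slc11a1 differed between cell gates by a test of the difference itself. It was 1.91 log2 units higher in the perivascular than in the T-zone reticular gate (SE 0.48, adjusted p = 0.00428, edgeR's quasi-likelihood test, Benjamini-Hochberg adjusted). Slc11a1 was lower in both knockout libraries in the T-zone reticular gate, at 35.8, 3.86, 34.2 and 9.68 CPM, and was 73.3, 33.7, 113 and 111 CPM in the perivascular gate. The 2 batch 1 perivascular values rest on 2 UMIs and 1 UMI, so the difference rests on batch 2. It was not called with DESeq2 (1.95, adjusted p = 1).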

How the results depend on the processing

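Batch 1 limits Hamp, Hamp2 and all perivascular values, and 2 libraries per genotype limit every call. Of 314 alternative values of the members' log2 differences, 249 kept direction and side of the threshold, 29 lost a call, 2 gained one and 34 changed sign. Calls over all fibroblast-gated cells, T-zone, marginal, adventitial and perivascular gates numbered 0, 0, 0, 0 and 2 without the replicate block. With DESeq2 they were 560 in the T-zone, 66 in the marginal, 1 in the adventitial and 0 in the perivascular gate (18 at an unadjusted p under 0.05). Without TMM factors they were 110 over all fibroblast-gated cells and 12 in the perivascular gate. Without a filter on low counts they were 866, 1392, 111 and 12 for all fibroblast-gated cells and the T-zone, adventitial and perivascular gates. A stricter gate gave 163 marginal and 14 adventitial calls, and a stricter cell filter 6 perivascular calls. With each library left out, in fits with no batch term, calls ranged from 0 to 11, 0 to 0 (369 to 658 at an unadjusted p under 0.05), 0 to 14, 0 to 163 and 0 to 18. The marginal gate's share of Hamp2 UMIs was 30.3%, 50.6%, 62.3% and 66.4% under a stricter gate. With the fibroblast minimum, added after seeing the data, it was 71.9%, 73.1% and 76.7% in the last 3 libraries. The share of its cells with Hamp2 was 2.92%, 7.89%, 12.1% and 6.74% after thinning.

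The Slc11a1 difference between gates was uncalled without the replicate block (2.23) and with DESeq2 (1.95), and ranged from 0.88 to 3.07 with a library left out. Sign changes, whose cause was not tested, were as follows. Over all fibroblast-gated cells, Hamp was -0.30 without the block, and Hamp2 was 0.16 with DESeq2 and 0.022 without TMM. In the marginal gate, Hamp2 was 0.080 with DESeq2, and Ftl1 was 0.048 without TMM, 0.0013 without the filter, 0.089 with stricter cells and 0.17 with a stricter gate. In the perivascular gate, Tfrc was -0.29 with stricter cells and -0.077 with a stricter gate, where Ftl1 was -0.0046. With a library left out, the ranges over all fibroblast-gated cells were -1.25 to 4.67 for Hamp, -1.90 to 2.59 for Hamp2, -0.51 to 0.82 for Fth1 and -0.21 to 0.33 for Ftl1. In the T-zone gate they were -1.22 to 0.051 for Hamp, -2.40 to 2.94 for Hamp2, -0.61 to 0.99 for Fth1 and -0.046 to 0.39 for Ftl1. In the marginal gate they were -1.19 to 1.41 for Hamp2, -0.57 to 0.68 for Fth1 and -0.21 to 0.17 for Ftl1. In the adventitial gate they were -0.29 to 0.92 for Fth1 and -0.24 to 0.43 for Ftl1. In the perivascular gate they were -0.47 to 0.10 for Slc11a1, -0.056 to -0.053 for Tfrc, -0.57 to 0.21 for Fth1 and -0.24 to 0.40 for Ftl1.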
